A study of Homo sapiens with 6 samples.

Results

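The genes described here are 10 long noncoding RNAs (lncRNAs) that are widely studied in cancer: MALAT1, NEAT1, H19, HOTAIR, MEG3, PVT1, TUG1, UCA1, CRNDE and KCNQ1OT1. They were chosen by name, without use of their values. On single-color Agilent arrays, 174 of 125601 probes belonged to them, out of 43260 genes with an exact sense match. The name column of the files only repeats the probe identifier, so a probe was assigned to a gene when its sequence matched an annotated transcript of that gene exactly and in the sense direction (GENCODE release 44, genome build hg38). UCA1 had 12 such probes, H19 6, KCNQ1OT1 7, HOTAIR and NEAT1 14 each, MALAT1 15, CRNDE 19, TUG1 22, MEG3 31 and PVT1 34. Of the 174 probes, 3 also matched another gene: 1 of NEAT1 (MIR612), 1 of MEG3 (MIR493HG) and 1 of TUG1 (ENSG00000275307).

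The cells were SKOV3, an established human ovarian cancer line. 3 arrays are labelled as cells given 100 nmol/L 1,25(OH)2D3, the hormonally active form of vitamin D, for 72 h, and 3 as cells given the ethanol vehicle for 72 h. The comparison asks which transcripts differ after treatment. No source used here says that the 3 samples of a label came from separate cultures, so p-values measure the spread between these samples, which may be technical.

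An lncRNA is a transcript that is not translated into protein and that acts as RNA, often in the nucleus. Some hold nuclear bodies together or sit beside splicing factors there, as NEAT1 does in paraspeckles and MALAT1 in nuclear speckles. Others act on chromatin or on imprinted neighbours, or bind microRNAs in the cytoplasm, and the level of many of them is altered in tumors.

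CYP24A1, the enzyme that breaks down 1,25(OH)2D3 and a classical target of the vitamin D receptor, was read first as a check of the labels. Its probe A_23_P28815 had log2 values of 2.23, 13.84 and 3.30 on the arrays labelled 1,25(OH)2D3 replicates 1, 2 and 3, and of 14.18, 4.75 and 14.34 on the vehicle arrays 1, 2 and 3. The scanner software placed the signal well above background on 3 arrays only, those labelled 1,25(OH)2D3 replicate 2 and vehicle replicates 1 and 3. For 4 of the 6 arrays the level thus went against the label, in that the hormone's target was low on an array labelled 1,25(OH)2D3 or high on an array labelled vehicle. The labels were kept, and every direction given here is between arrays as labelled. The order of the arrays by this probe is not a grouping that the labels give. The paper names CYP24A1 as its most upregulated mRNA, while between the arrays as labelled its log2 difference was -4.64. Whether the labels match the treatment was not tested. Without the 4 arrays that went against their label, each label would hold 1 array, and no test could be made.

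The arrays lay on 2 slides. Slide 1 held those labelled 1,25(OH)2D3 replicates 1 and 2, and slide 2 held the other 4. Each array carried 175812 spots that were not controls, none of them saturated, and the share of probes well above background was 49.1% to 57.5%. Keratins KRT7 and KRT8, the receptor ERBB2 and the transcription factor PAX8, which mark epithelial ovarian carcinoma, were well above background on all 6 arrays. MUC16, which encodes the serum marker CA-125, had the lowest difference between the labels among these markers (-0.71, limma adjusted p = 0.701). The fibroblast, immune and endothelial markers that had been listed (3, 4 and 3 genes) also passed the detection filter, and none of them differed past the threshold between the labels.

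The probe sequences below carry the comparisons within UCA1, NEAT1, CRNDE, HOTAIR and MEG3. For each gene the first is the lead probe, the one with the highest mean over the 6 arrays, and the second is the tested probe whose difference between the labels was farthest from that of the lead; for NEAT1 the lead alone is shown. They are written in the direction of the transcript, with positions on hg38, and capitals mark bases that another probe of the same gene also covers.
OEV5_53680 (UCA1, chr19:15835232-15835291, plus strand): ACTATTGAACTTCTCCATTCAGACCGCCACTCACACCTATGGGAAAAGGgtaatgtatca
OEV5_53342 (UCA1, chr19:15836202-15836261, plus strand): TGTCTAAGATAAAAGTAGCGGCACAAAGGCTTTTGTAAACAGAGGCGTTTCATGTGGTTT
OEV5_31905 (NEAT1, chr11:65445034-65445093, plus strand): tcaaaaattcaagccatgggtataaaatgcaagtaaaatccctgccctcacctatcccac
A_19_P00322533 (CRNDE, chr16:54920298-54920357, minus strand): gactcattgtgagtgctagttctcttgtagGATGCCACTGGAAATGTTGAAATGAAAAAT
OEV5_56870 (CRNDE, chr16:54928965-54929024, minus strand): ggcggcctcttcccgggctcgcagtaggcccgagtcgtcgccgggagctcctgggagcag
A_19_P00326808 (HOTAIR, chr12:53967331-53967390, minus strand): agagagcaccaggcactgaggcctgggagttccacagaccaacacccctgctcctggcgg
OEV5_57837 (HOTAIR, chr12:53962310-53962369, minus strand): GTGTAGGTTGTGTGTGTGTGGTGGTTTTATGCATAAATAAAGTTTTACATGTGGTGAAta
OEV5_51315 (MEG3, chr14:100857630-100857689, plus strand): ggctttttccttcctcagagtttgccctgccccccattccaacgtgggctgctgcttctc
OEV5_59953 (MEG3, chr14:100831020-100831079, plus strand): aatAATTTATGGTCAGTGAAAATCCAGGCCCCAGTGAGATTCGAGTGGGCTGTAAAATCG
The UCA1 probes, OEV5_57837 of HOTAIR and OEV5_59953 of MEG3 overlap others over most of their length, so such probes are not separate measurements of the transcript. The NEAT1 lead probe shares no base with another probe.

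Detection differed among the genes. All probes of MALAT1, NEAT1, PVT1 and TUG1 were well above background on all 6 arrays. For CRNDE this held for 17 of 19 probes, for UCA1 for 8 of 12, for H19 for 4 of 6, for KCNQ1OT1 for 4 of 7, for MEG3 for 14 of 31 and for HOTAIR for 5 of 14. On no array were 8 HOTAIR, 12 MEG3, 2 CRNDE, 2 KCNQ1OT1 and 1 H19 probe well above background. In all, 137 of the 174 probes were detected on all 6 arrays, 12 on some and 25 on none.

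**Figure D1:**
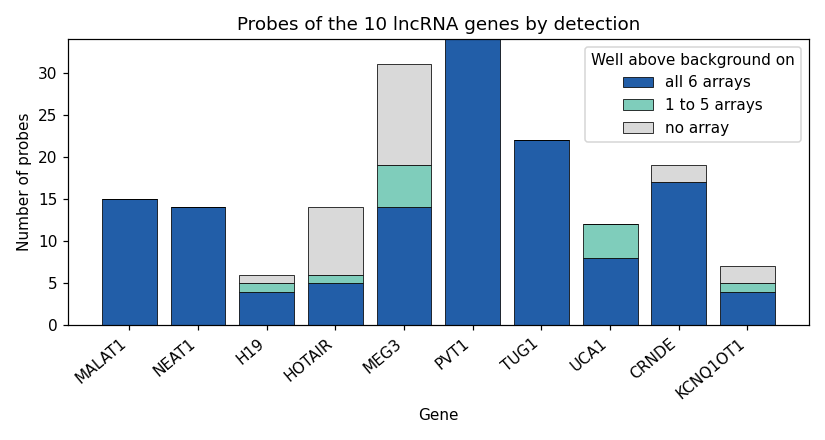
Number of probes (vertical axis) of each of the 10 lncRNA genes (horizontal axis), split by whether the probe was well above background on all 6 arrays, on 1 to 5 or on none. All probes of MALAT1 (15), NEAT1 (14), PVT1 (34) and TUG1 (22) lie in the first class, while HOTAIR has 8 and MEG3 12 probes in the last.

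No member probe differed past the threshold between the labels. The test used limma on the deposited log2 values of 63337 probes, each detected (well above background) on every array of 1 label or both, of which 140 belonged to the 10 genes; the other 34 member probes did not pass this filter. At more than 2-fold with an unadjusted p under 0.05, 0 of the 140 member probes were called, beside 0.745% of all tested probes (472), 0.486% higher and 0.259% lower on the arrays labelled 1,25(OH)2D3. After Benjamini-Hochberg adjustment in limma no probe of the array passed 0.05, and the lowest adjusted p was 0.701; without vehicle replicate 1, 4 probes passed, and no member probe was past the unadjusted threshold. At an unadjusted p under 0.05 alone, limma called 1 member probe and 4286 of all tested probes (6.77%). The methods' t-test, named there for the study's other experiments and run here on the same values, also called 0 member probes and, at the unadjusted threshold, 139 of all. Without 1,25(OH)2D3 replicate 2, 8 member probes passed the unadjusted threshold, beside 1.12% of all tested probes. Without vehicle replicate 2, 3 did, beside 0.706% of all. Without 1,25(OH)2D3 replicate 3, 2 did, beside 1.86% of all (HOTAIR -1.16 and CRNDE -1.02, lowest limma adjusted p 0.116).

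Over the 140 tested probes the median log2 difference, 1,25(OH)2D3 minus vehicle, was 0.06 beside 0.00 over all tested probes. It was above 0 in 80 member probes (57.1%, beside 49.4% of all) and below 0 in 57, and it ranged from -1.92 to 0.50. A difference over 2-fold was found in 6 probes, all of UCA1. The arrays of the labels did not overlap in 12 member probes, with 1,25(OH)2D3 above in 10 (7.14%, beside 7.03% of all tested probes) and below in 2 (1.43%, beside 5.18%).

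**Figure D2:**
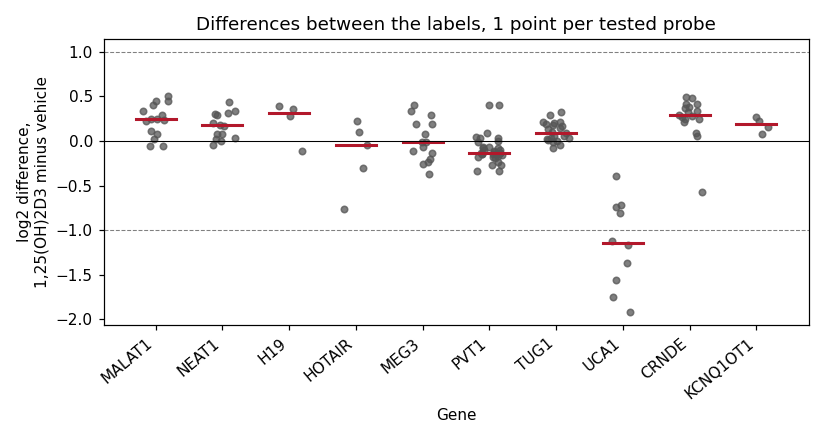
Log2 difference between the labels (vertical axis, 1,25(OH)2D3 minus vehicle, mean of 3 arrays each) for each of the 140 tested probes (points) of the 10 genes, with the gene's median as a bar and dashed lines at a 2-fold change. UCA1 lies below 0 throughout, from -1.92 to -0.39, and all other points lie between -0.76 and 0.50.

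UCA1 was first described in bladder carcinoma and acts in proliferation and drug resistance of tumor cells. The gene (ENSG00000214049.8) lies on the plus strand of chromosome 19 from 15828206 to 15836328, and its lead probe OEV5_53680 in the last exon of the canonical transcript, exon 5. On the arrays labelled 1,25(OH)2D3 replicates 1, 2 and 3 this probe had log2 values of 11.25, 12.52 and 11.12. On those labelled vehicle it had 13.11, 11.33 and 12.88. Thus 1 array labelled 1,25(OH)2D3 and 2 labelled vehicle were high, and the labels overlapped. The means were 11.63 ± 0.77 (SD, n = 3) and 12.44 ± 0.97 (SD, n = 3), a log2 difference of -0.81 (SE 0.538, limma adjusted p = 0.715).

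The 3 high arrays were the same for every UCA1 probe, and they were those with a high CYP24A1 probe. All 12 probes, tested or not, were higher on 1,25(OH)2D3 replicate 2 and vehicle replicates 1 and 3 than on any of the other 3 arrays. The gap between the lowest of these 3 and the highest of the others was 0.76 to 1.90 on the log2 scale. This order was found in 10 of 10 tested UCA1 probes and in 2 of the 130 tested probes of the other genes. Of all tested probes 3.29% had these 3 arrays above the others and 2.88% below, and 2 member probes, 1 of HOTAIR and 1 of TUG1, had them below.

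Probes at other places of UCA1 gave this order with different spans. Around the lead probe, A_32_P200238, which crosses a splice junction, read 11.10, 12.47 and 11.04 on the arrays labelled 1,25(OH)2D3 and 12.78, 11.17 and 12.89 on those labelled vehicle. Across the junction of exons 4 and 5, OEV5_33391 read 6.52, 9.61 and 5.79 against 9.14, 7.87 and 9.59. Downstream of the canonical transcript but within another annotated one, OEV5_53342 read 4.38, 7.44 and 2.50 against 6.45, 5.70 and 7.94. All show the same 3 arrays on top, and the last of these probes was well above background on 5 arrays.

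By label, UCA1 was lower on the arrays labelled 1,25(OH)2D3 in 10 of 10 tested probes, with a median log2 difference of -1.14 and standard errors of 0.525 to 1.22. The CYP24A1 probe went against the label on most arrays, so this direction is between the labels only. Unadjusted limma p ranged from 0.138 to 0.479, so none of the 10 probes passed the unadjusted threshold. On slide 2 alone, where 1 array labelled 1,25(OH)2D3 stands against 3 labelled vehicle, the difference of the lead probe was -1.32. Without 1,25(OH)2D3 replicate 2, 8 UCA1 probes passed the unadjusted threshold (-3.26 to -1.25, lowest limma adjusted p 0.872), beside 1.12% of all tested probes. Without vehicle replicate 2, 3 did (-1.36 to -1.22, lowest limma adjusted p 0.919), beside 0.706% of all. The arrays left out in these fits were those on which the CYP24A1 probe went with the label (13.84 and 4.75). Each fit thus kept every array on which that probe went against the label. OEV5_53342 and OEV5_53679 were well above background on all 3 arrays labelled vehicle and on 2 labelled 1,25(OH)2D3, so they entered the test only through the label where they were higher.

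**Figure D3:**
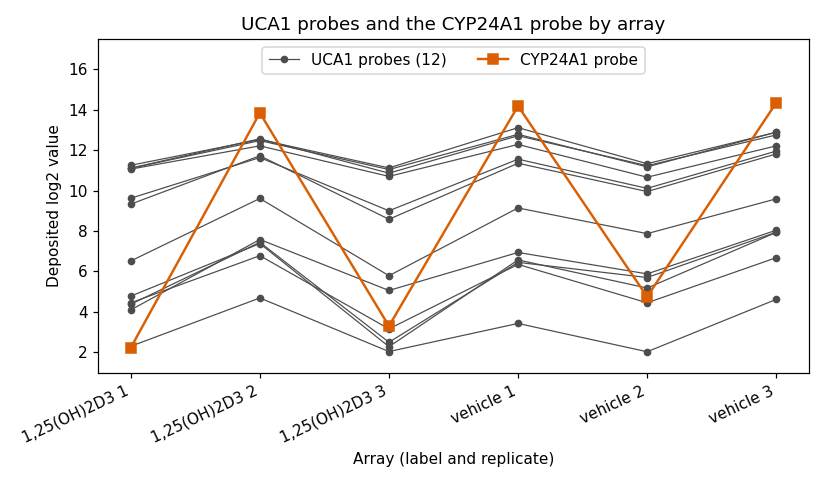
Deposited log2 value (vertical axis) of the 12 UCA1 probes (grey, 1 line per probe) and of the CYP24A1 probe (orange) on the 6 arrays (horizontal axis, by label and replicate). Every line is higher on 1,25(OH)2D3 replicate 2 and vehicle replicates 1 and 3 than on the other 3 arrays; heights of different probes are not comparable.

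NEAT1, the RNA scaffold of paraspeckles, is made as a short and a long transcript from the same start. The gene (ENSG00000245532.11) lies on the plus strand of chromosome 11 from 65422774 to 65445540. Its lead probe OEV5_31905, near the end of the long transcript, read 14.81, 14.38 and 14.66 on the arrays labelled 1,25(OH)2D3 and 14.78, 14.44 and 14.39 on those labelled vehicle. Each label held high and low arrays, and the log2 difference was 0.08 (SE 0.188, limma adjusted p = 0.917) between means of 14.61 ± 0.22 and 14.53 ± 0.21 (SD, n = 3 each).

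The 14 NEAT1 probes moved together from array to array, more than the labels differed. All 14 were above their own mean on 1,25(OH)2D3 replicate 3 and vehicle replicate 1, all 14 below it on vehicle replicate 3, and 13 below it on 1,25(OH)2D3 replicate 2. The median range over the arrays was 1.25 on the log2 scale, beside 0.64 over all tested member probes, while the differences between the labels ran from -0.04 to 0.44. On slide 2 alone the lead probe differed by 0.12.

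On vehicle replicate 2 the NEAT1 probes differed with their position along the gene, a pattern that was noticed after the values were seen. The 8 probes 1.4 to 3.6 kb from the 5′ end match 4 to 8 annotated transcripts, and the 6 probes from 3.9 to 22.3 kb match only the longest. In the first set vehicle replicate 2 was 0.40 to 0.98 above vehicle replicate 3 on the log2 scale (median 0.76). In the second set this difference was -0.15 to 0.05 (median 0.00). The values of both sets come from single arrays, so no test was made. By label the first set had a median difference of 0.06 and the second of 0.31.

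**Figure D4:**
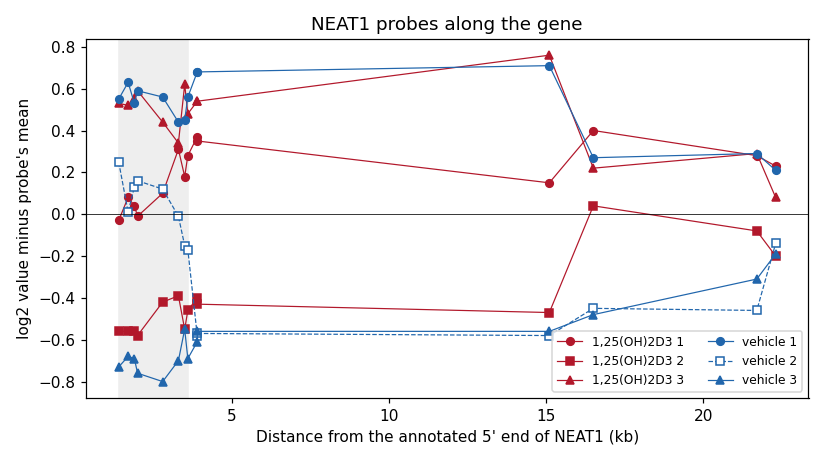
Log2 value of each NEAT1 probe minus its mean over the 6 arrays (vertical axis) against the distance of the probe from the annotated 5′ end of the gene in kb (horizontal axis), 1 line per array. The shaded span holds the 8 probes that match several transcripts; vehicle replicate 2 (dashed, open squares) lies at -0.17 to 0.25 there and at -0.58 to -0.14 beyond it.

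MALAT1, an abundant nuclear RNA of the speckles linked to metastasis, lies beside NEAT1 on the plus strand (ENSG00000251562.11, chromosome 11, 65497640 to 65508073). Its lead probe OEV5_65053 crosses a splice junction and matches 2 annotated transcripts. It read 16.04, 15.82 and 15.95 on the arrays labelled 1,25(OH)2D3 and 16.30, 15.79 and 15.87 on those labelled vehicle. The values overlapped, and the log2 difference was -0.05 (SE 0.184, limma adjusted p = 0.953). Of the 15 probes 13 were higher on the arrays labelled 1,25(OH)2D3, with a median difference of 0.25, while the lead probe was 1 of the 2 lower ones. A_19_P00809614 differed most, with 7.49, 7.78 and 7.56 against 7.61, 6.94 and 6.77, a difference of 0.50 (SE 0.239, limma adjusted p = 0.701).

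The MALAT1 probes shared an order of the arrays. All 15 were above their own mean on vehicle replicate 1 and below it on vehicle replicates 2 and 3. No MALAT1 or NEAT1 probe had labels that did not overlap, or slide 1 arrays that lay apart from those of slide 2.

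TUG1, a chromatin-associated RNA first found in retina, showed the smallest median range over the arrays among the 10 genes, 0.48 on the log2 scale. It lies on the plus strand of chromosome 22 (ENSG00000253352.10, 30969245 to 30979395). The lead probe A_19_P00320796 in exon 3 read 12.08, 11.83 and 12.03 on the arrays labelled 1,25(OH)2D3 and 12.09, 11.89 and 11.58 on those labelled vehicle. The difference was 0.13 (SE 0.183, limma adjusted p = 0.851), and 18 of 22 probes were higher on the arrays labelled 1,25(OH)2D3. Vehicle replicate 3 was the lowest array in 19 of the 22. In 4 of the 22 TUG1 probes all arrays labelled 1,25(OH)2D3 lay above those labelled vehicle, beside 7.03% of all tested probes. The largest difference among these was in A_19_P00320625 (7.90, 7.57 and 7.48 against 7.34, 7.30 and 7.34, 0.33, SE 0.165, limma adjusted p = 0.701). In that probe both slide 1 arrays also lay above all of slide 2, and within slide 2 the difference was 0.16.

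CRNDE, an RNA raised in colorectal and other tumors, lies on the minus strand of chromosome 16 (ENSG00000245694.12, 54845189 to 54929189). The lead probe A_19_P00322533 read 9.45, 9.41 and 9.39 on the arrays labelled 1,25(OH)2D3 and 9.53, 8.88 and 9.08 on those labelled vehicle. Vehicle replicate 1 was the highest array and vehicle replicate 2 the lowest, and the difference was 0.25 (SE 0.195, limma adjusted p = 0.738). In 16 of 17 tested probes CRNDE was higher on the arrays labelled 1,25(OH)2D3 (median difference 0.29), and vehicle replicate 2 was the lowest array in 15. OEV5_55686 was the 1 member probe with an unadjusted limma p under 0.05, at 0.0499. It read 8.09, 8.04 and 7.67 against 7.44, 7.19 and 7.75, a difference of 0.48 (SE 0.204, limma adjusted p = 0.701). Here too both slide 1 arrays lay above all of slide 2, and within slide 2 the difference was 0.21.

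The tested CRNDE probe that was lower on the arrays labelled 1,25(OH)2D3 was OEV5_56870, near the 5′ end of the gene. It read 6.90, 7.10 and 8.37 on the arrays labelled 1,25(OH)2D3 and 7.93, 7.67 and 8.48 on those labelled vehicle. It was low on both slide 1 arrays, and its difference of -0.57 turned to 0.34 within slide 2. In the other direction, 7 of the 17 CRNDE probes had both slide 1 arrays above all of slide 2, beside 14.4% of all tested probes. Among them A_19_P00318645, A_32_P104063 and OEV5_58525 share 45 to 55 bases with one another, so they are not separate measurements.

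H19, an imprinted RNA of fetal tissue next to IGF2, lies on the minus strand of chromosome 11 (ENSG00000130600.22, 1995166 to 2004552). The lead probe OEV5_60745 lies only partly in exon 4 of the canonical transcript and matches 2 annotated transcripts. The other tested H19 probes match 25 to 30. The lead probe read 9.81, 9.75 and 9.33 on the arrays labelled 1,25(OH)2D3 and 9.21, 9.31 and 9.30 on those labelled vehicle. All of the first lay above the second, by 0.36 between the means (9.63 ± 0.26 and 9.27 ± 0.06, SD, n = 3 each; SE 0.177, limma adjusted p = 0.701). Both slide 1 arrays also lay above all of slide 2, and within slide 2 the difference was 0.06. Of the 4 tested H19 probes 3 were higher on the arrays labelled 1,25(OH)2D3, and all 4 were highest on 1,25(OH)2D3 replicate 1.

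KCNQ1OT1, the paternally expressed antisense RNA that silences genes of the KCNQ1 domain, lies on the minus strand of the same chromosome (ENSG00000269821.2, 2597308 to 2700003). Its lead probe OEV5_55416 read 9.03, 8.74 and 8.46 on the arrays labelled 1,25(OH)2D3 and 8.88, 8.21 and 8.46 on those labelled vehicle. The labels overlapped, with a difference of 0.23 (SE 0.229, limma adjusted p = 0.792) that was -0.05 within slide 2. All 4 tested probes were higher on the arrays labelled 1,25(OH)2D3, by 0.08 to 0.27, and all 4 were lowest on vehicle replicate 2. Of the 7 KCNQ1OT1 probes, the 4 tested ones lie 2.6 to 49.4 kb from the 5′ end of the gene and the other 3 at 59.4 to 102.5 kb.

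HOTAIR, transcribed among the HOXC genes and known for binding chromatin regulators, lies on the minus strand of chromosome 12 (ENSG00000228630.7, 53962308 to 53974956). Its lead probe A_19_P00326808 in exon 3 read 8.41, 8.69 and 8.99 on the arrays labelled 1,25(OH)2D3 and 9.13, 8.95 and 8.92 on those labelled vehicle. Both slide 1 arrays were the lowest, and the difference of -0.30 (SE 0.188, limma adjusted p = 0.707) was -0.01 within slide 2. OEV5_57836 in exon 7 did the same, with 7.94, 7.72 and 9.01 against 8.93, 8.76 and 9.26 and a difference of -0.76 (SE 0.338, limma adjusted p = 0.701) that was 0.03 within slide 2. At the 3′ end of the gene, OEV5_57837 had the other sign, with 8.88, 8.80 and 8.69 against 8.48, 8.55 and 8.69 and a difference of 0.22 (SE 0.149, limma adjusted p = 0.719). In OEV5_57837 both slide 1 arrays lay above all of slide 2, and within slide 2 the difference was 0.12. Among the 9 HOTAIR probes that were not tested, 8 were not well above background on any array, though they too match annotated HOTAIR transcripts exactly.

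MEG3, a maternally expressed imprinted RNA that is lost in many tumors, lies on the plus strand of chromosome 14 (ENSG00000214548.18, 100779410 to 100861031). The lead probe OEV5_51315 read 15.45, 15.67 and 15.58 on the arrays labelled 1,25(OH)2D3 and 15.63, 15.62 and 15.64 on those labelled vehicle. The difference was -0.07 (SE 0.144, limma adjusted p = 0.910). Of the 15 tested probes 6 were higher and 9 lower on the arrays labelled 1,25(OH)2D3, with a median of -0.01. In A_32_P40547 all arrays labelled 1,25(OH)2D3 were higher, with 13.81, 13.92 and 13.67 against 13.34, 13.45 and 13.59 (0.34, SE 0.156, limma adjusted p = 0.701), and both slide 1 arrays lay above slide 2.

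Some overlapping MEG3 probes differed and others did not. A_32_P40547 and OEV5_58036 share 57 bases, were both detected on all 6 arrays and differed between the labels by 0.34 and 0.29. OEV5_58041 and OEV5_58929, with 57 shared bases, were also detected on all 6, with -0.23 and -0.20. A_19_P00316675 and OEV5_59953 share 57 bases too, but differed by -0.16 and 0.40. They were detected on 3 and 4 arrays, and only OEV5_59953 was tested. OEV5_56946 was detected on no array, and OEV5_57710, which overlaps only its 3′ part, was on all 6. OEV5_56846 read 7.38, 7.59 and 8.68 on the arrays labelled 1,25(OH)2D3 and 8.25, 8.18 and 8.34 on those labelled vehicle. A_33_P3255434, which shares 40 bases with it, read 7.23, 7.27 and 7.21 against 7.18, 6.92 and 7.66. The first was low on both slide 1 arrays and the second was not.

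PVT1, a neighbour of MYC that is often gained with it in tumors, was measured with 34 probes (ENSG00000249859.14, plus strand of chromosome 8, 127794526 to 128187101). The lead probe A_19_P00320749 in exon 5 read 12.87, 12.79 and 12.28 on the arrays labelled 1,25(OH)2D3 and 12.59, 11.98 and 12.18 on those labelled vehicle. Both slide 1 arrays were the highest, and the difference of 0.40 (SE 0.232, limma adjusted p = 0.703) was 0.03 within slide 2. Of the 34 probes 27 were lower on the arrays labelled 1,25(OH)2D3, so the lead probe had the opposite sign to the median of -0.13. Vehicle replicate 3 was the highest array in 18 probes and lay above the probe's mean in 30.

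Neighbouring PVT1 probes disagreed in exon 5. A_19_P00322939 read 11.21, 11.16 and 10.99 against 10.41, 10.84 and 10.90, a difference of 0.40 (SE 0.183, limma adjusted p = 0.701). OEV5_55092, placed 1 base away and sharing 59 bases, read 10.48, 10.52 and 10.01 against 10.37, 10.28 and 10.58, a difference of -0.07 (SE 0.193, limma adjusted p = 0.928). A_19_P00322939 matches 70 annotated transcripts and OEV5_55092 matches 35. Only A_19_P00322939 had both slide 1 arrays above all of slide 2. Over all 10 genes, 44 pairs of tested probes shared at least 30 bases; their differences between the labels were 0.11 apart at the median and 0.77 at most, and 36 pairs had the same sign.

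**Figure D5:**
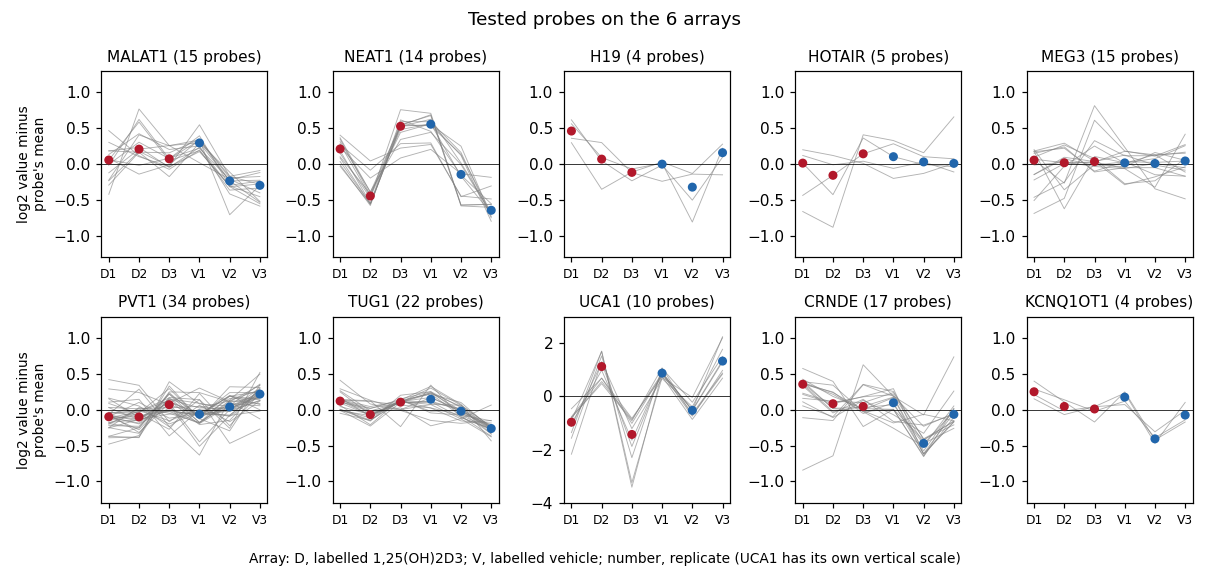
Log2 value of each tested probe minus its own mean over the 6 arrays (vertical axis; grey lines, 1 per probe) on the arrays labelled 1,25(OH)2D3 (D1 to D3) and vehicle (V1 to V3), with the median over the gene's probes as points. NEAT1 and UCA1 probes share their highs and lows across arrays, the medians of TUG1 and MALAT1 are lowest on V3 and those of CRNDE and KCNQ1OT1 on V2, and MEG3 has medians between 0.01 and 0.06.

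The arrays of the slides were also set apart in some member probes. Both slide 1 arrays lay above all slide 2 arrays in 19 of the 140 tested member probes (13.57%, beside 14.4% of all tested probes) and below them in 18 (12.86%, beside 15.4%). Of the 18 probes 12 belonged to PVT1, 3 to MEG3, 2 to HOTAIR and 1 to CRNDE. With the slide as a block, 28 member probes changed the sign of their difference, and 4 passed the unadjusted threshold, beside 1.28% of all tested probes: 3 of UCA1 (-4.28 to -3.08) and OEV5_59953 of MEG3 (1.01), with a lowest limma adjusted p of 0.966. Of the arrays labelled vehicle only 1 detected OEV5_59953, so it too entered the test only through the label where it was higher, as did 2 of the 3 UCA1 probes. As slide 1 holds only arrays labelled 1,25(OH)2D3, that fit rests on 1,25(OH)2D3 replicate 3 against the vehicle arrays. The part of the slide in these differences was not tested.

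Genes that work with or beside the members were read from 3 lists. Among neighbours and partners in cis 15 of 22 genes were tested, 13 of them lower and 2 higher on the arrays labelled 1,25(OH)2D3 (median difference -0.11). HOXC11, a homeobox gene of the cluster that holds HOTAIR, alone passed the unadjusted threshold, beside 0.745% of all tested probes, with 5.29, 5.37 and 5.27 against 3.39, 3.53 and 5.39, a difference of 1.20 (SE 0.487, limma adjusted p = 0.701). It was well above background on 4 arrays, 1 of them labelled vehicle, so it entered the test only through the label where it was higher, and vehicle replicate 3 was as high as those labelled 1,25(OH)2D3.

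Of 11 paraspeckle and speckle proteins all were tested, none passed the threshold, and the median difference was -0.12. SRSF2, a splicing factor of the speckles, had the lowest difference (-0.40, 14.15 ± 0.13 against 14.55 ± 0.30, SD, n = 3 each; limma adjusted p = 0.701), and SRRM2, a speckle scaffold, the highest (0.29, 13.95 ± 0.11 against 13.66 ± 0.03, SD, n = 3 each; limma adjusted p = 0.701). Of 8 polycomb and imprinting proteins 7 were tested and none passed the threshold (median difference -0.04). JARID2, a partner of the polycomb complex, had the lowest difference (-0.20, limma adjusted p = 0.744) and EZH1, a methyltransferase of that complex, the highest (0.17, limma adjusted p = 0.836).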

How the data were processed

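RNA of 6 SKOV3 samples, 3 per label, was measured on single-color Agilent arrays. Per the file headers and the submitters' processing notes, the authors scanned them with Agilent Feature Extraction 10.7.1.1 and deposited a linear intensity for every spot, corrected for background within the array, and a table of log2 values. The columns of that deposited log2 table, once sorted, differ by at most 0.000913, so they had been quantile normalized. It holds 0 columns of other samples. The design annotation is named on hg19, and probes were placed here on hg38 by their own sequence.

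The deposited log2 values were used as given. A probe was well above background on an array when most of its unflagged spots carried that flag, and 63337 probes that were so on all 3 arrays of a label were fitted with limma 3.58.1 in R 4.3.3, without a covariate. P-values were adjusted by Benjamini-Hochberg over all tested probes. Thresholds were more than 2-fold with an unadjusted p under 0.05, and an adjusted p under 0.05. Levels of different probes were compared only to pick the lead probe of each gene. Array number, 3 per label, limits the precision. The fit was tested on simulated data.

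The members, lists and tests were chosen with earlier results of these data known. All 10 members were named; sequences are those of the lead probe and of the probe farthest from it between the labels, of which 1 is not reported here. Of the 3 lists of neighbours, nuclear body proteins and chromatin proteins, only genes past the unadjusted threshold, or else the highest and lowest differences, were named. Alternatives were the scanner intensity relative to the 75th percentile, normexp with an offset of 50, 2 other filters, a block for the slide or for the replicate number, the methods' t-test, and each array left out.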

Additional observations from a re-analysis of the deposited data

How the results depend on the processing

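The count of all probes past the unadjusted threshold, 472 as reported, was 33 with normexp and quantile normalization, 1612 without the filter, 157 with the filter on all 6 arrays, 808 with the slide as a block and 139 with the methods' t-test. It ranged from 296 to 1181 with each array left out, of which 296 was without 1,25(OH)2D3 replicate 1, 1181 without 1,25(OH)2D3 replicate 3 and 1109 without vehicle replicate 1. Member probes past it numbered 4 with the slide as a block and 0 to 8 with each array left out, and 0 under the other alternatives. Probes past the adjusted threshold numbered 0 to 4 with each array left out and 0 otherwise. The lead probe's difference changed sign for MALAT1 (-0.05; 0.03 with normexp, -0.15 to 0.11 with each array left out, above 0 without 1,25(OH)2D3 replicate 2 (0.01) or vehicle replicate 1, 0.25 as the median of its probes), NEAT1 (0.08; -0.02 to 0.20 with each array left out, the lowest without 1,25(OH)2D3 replicate 1), MEG3 (0.04 with normexp), PVT1 (-0.13 as the median), TUG1 (-0.01 without vehicle replicate 3) and KCNQ1OT1 (-0.05 with the slide as a block). For UCA1 it passed the unadjusted threshold without 1,25(OH)2D3 replicate 2 (-1.25) or vehicle replicate 2 (-1.36). The cause was not tested. The replicate numbers do not pair the samples: same-numbered samples deviated with correlations of 0.12, 0.09 and -0.03, and with the replicate block 582 probes and 0 member probes passed.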

Other observations

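Probes on the opposite strand of the same loci are no members and were read as values. Both probes antisense to UCA1 had the order of the UCA1 probes, which 3.29% of all tested probes had. OEV5_70769 read 3.50, 6.90 and 2.36 on the arrays labelled 1,25(OH)2D3 and 6.83, 5.64 and 7.55 on those labelled vehicle (log2 difference -2.42, limma adjusted p = 0.701, well above background on 4 arrays). This probe entered the test only through the label where it was higher, vehicle. OEV5_42840, in LINC01764, read 8.17, 8.78 and 8.67 against 8.84, 8.64 and 9.09 (-0.32, limma adjusted p = 0.718). In OEV5_42840 the lowest of the high arrays (8.78) was close to the highest of the others (8.67). The gap was narrower than in the UCA1 probes (0.76 to 1.90).

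Of 9 probes antisense to MALAT1, 8 match TALAM1, the annotated antisense transcript, and these were well above background on all 6 arrays. Their differences between the labels ran from -0.24 (OEV5_67087, limma adjusted p = 0.762) to 0.13 (OEV5_67086, limma adjusted p = 0.805). Both probes antisense to NEAT1 were well above background on all 6 arrays, with differences of 0.07 and 0.09, and the 4 probes antisense to MEG3 on none. Antisense to PVT1, OEV5_05083 passed the unadjusted threshold, with 5.36, 5.69 and 6.10 against 3.63, 5.02 and 5.40, a difference of 1.03 (limma adjusted p = 0.701), beside 0.745% of all tested probes. It was not well above background on vehicle replicate 1, so it entered the test only through the label where it was higher.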
